A study of Mus musculus with 12 samples.

Results

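The 10 genes described here, Wnt2, Rspo3, Lgr5, Rnf43, Znrf3, Axin2, Tbx3, Glul, Oat and Slc1a2, belong to the Wnt system that sets up zonation of the liver. They were taken by symbol from the table of 25611 genes, and all 10 were among the 13190 genes that passed the low-count filter. RNA of whole liver was sequenced from 12 male C57BL6J mice aged 8 to 10 weeks, 4 in each of 3 groups, with 30 hr between surgery and collection. Sham mice had an abdominal incision without ligation or puncture, CLP mice had cecal ligation and puncture, a model of sepsis, and CLP+DCA mice had the same operation and, at 24 hr, an intraperitoneal injection of dichloroacetate (DCA, 25 mg/kg), an inhibitor of the pyruvate dehydrogenase kinases, 6 hr before collection. All mice, sham included, were given saline under the skin. Sham and CLP mice are recorded with an injection at 24 hr too, with DCA at 0 mg/kg. The published methods describe an injection at 24 hr for DCA only and name no vehicle. No genotype was altered, and the comparisons ask how CLP and the later DCA injection bear on liver gene expression.

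Hepatocytes differ along the lobule, from the portal tract, where blood enters, to the central vein, where it leaves. Endothelial cells of the central vein and the adjoining sinusoids secrete Wnt ligands, and R-spondins from endothelial and stellate cells strengthen the signal by keeping the ubiquitin ligases RNF43 and ZNRF3 from removing Wnt receptors. In the hepatocytes around the central vein, β-catenin then activates, with TCF/LEF factors, a pericentral program that includes glutamine synthetase and holds back periportal genes.

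In the mm10 coordinates of the counts, Wnt2 lies on chromosome 6 from 17988940 to 18030445, Rspo3 on chromosome 10 from 29453107 to 29535867, Lgr5 on chromosome 10 from 115450314 to 115587780, Rnf43 on chromosome 11 from 87663087 to 87735539, Znrf3 on chromosome 11 from 5276329 to 5444847, Axin2 on chromosome 11 from 108920349 to 108950781, Tbx3 on chromosome 5 from 119670862 to 119684724, Glul on chromosome 1 from 153899929 to 153909723, Oat on chromosome 7 from 132557475 to 132576398 and Slc1a2 on chromosome 2 from 102658683 to 102790784. RefSeq promoter windows (GRCm38.p6, the assembly that mm10 names) were matched for 6 of the 10 genes: Axin2, Rnf43, Oat, Slc1a2, Wnt2 and Glul. The 250 bases before the start are shown for Glul (chr1:153899679-153899928, plus strand), Oat (chr7:132576399-132576648, minus strand) and Slc1a2 (chr2:102706188-102706437, plus strand), because these 3 genes had their lowest values in the same 3 mice. The Slc1a2 window lies before a start inside the gene. Capitals mark a match to the TCF/LEF motif, with the letters CTTTGAA, alternatively CTTTGAT, alternatively CTTTGTA, alternatively CTTTGTT, searched on both strands.
Glul: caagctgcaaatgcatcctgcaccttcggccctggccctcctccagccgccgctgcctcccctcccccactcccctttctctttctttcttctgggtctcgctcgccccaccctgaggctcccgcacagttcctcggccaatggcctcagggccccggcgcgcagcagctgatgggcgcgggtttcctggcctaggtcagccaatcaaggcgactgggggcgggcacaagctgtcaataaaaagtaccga
Oat: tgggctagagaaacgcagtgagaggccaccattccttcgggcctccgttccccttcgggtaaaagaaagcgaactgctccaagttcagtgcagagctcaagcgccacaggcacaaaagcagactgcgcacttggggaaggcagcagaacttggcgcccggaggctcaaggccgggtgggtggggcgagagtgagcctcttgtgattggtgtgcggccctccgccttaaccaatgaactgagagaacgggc
Slc1a2: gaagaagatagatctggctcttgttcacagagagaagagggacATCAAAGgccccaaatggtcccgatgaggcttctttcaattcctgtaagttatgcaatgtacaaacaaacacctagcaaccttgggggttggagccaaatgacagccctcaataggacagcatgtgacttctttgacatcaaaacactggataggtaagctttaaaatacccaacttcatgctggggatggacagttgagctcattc
The capitals in Slc1a2, ATCAAAG, begin 207 bases before the start and were the only match in the 7 windows of the 6 genes (Rnf43 has 2). Of 32851 RefSeq promoter windows of this length, 14.8% held a match, so a match is common, and the lack of one says only that these letters are not in the window.

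The libraries held 24436513 to 44266819 reads on genes. Expression is given as CPM, reads scaled to a common library size, on TMM-normalized library sizes, and group differences as log2 fold changes from edgeR's quasi-likelihood test, fitted to all 12 mice and all 13190 genes with Benjamini-Hochberg adjustment at an FDR of 0.05. TMM factors were lowest in CLP 2 (0.855), CLP 4 (0.867) and CLP+DCA 3 (0.918), against 0.981 to 1.09 in the other mice. Hepatocyte markers (10 genes, Alb and Apoa1 among them) summed to 69696 to 91881 CPM in sham, 44054 to 57073 CPM in CLP and 39810 to 65659 CPM in CLP+DCA, so that every sham mouse was above every other mouse. Alb alone was at 39666 to 58481 CPM in sham, 15323 to 24432 CPM in CLP and 15515 to 33314 CPM in CLP+DCA. It was thus a large part of the sums and set the sham mice apart by itself. In CLP versus sham, 7 of the 10 markers had a log2 fold change below 0, as 48.1% of all genes had, and 3 above 0 (median -0.20). Alb, albumin, was the 1 of them past the FDR in CLP versus sham, where 2.78% of all genes passed (log2 fold change -1.11, adjusted p = 0.0463 by edgeR's quasi-likelihood test). Of the 8 neutrophil markers, 7 were above 0 in this comparison, and Retnlg alone passed the FDR (3.10, adjusted p = 0.0254 by the same test). Ly6g, the 1 below 0, was at -0.78 (adjusted p = 0.136). No marker of any of the 7 cell types listed was at 0 in all mice. Neutrophil markers (8 genes) summed to 6.24 to 8.97 CPM in sham, 31.2 to 44.0 CPM in CLP and 6.26 to 56.8 CPM in CLP+DCA, and cholangiocyte markers (6 genes) to 34.4 to 43.8, 62.1 to 96.3 and 38.4 to 213.4 CPM, with CLP+DCA 3 highest in both. In CLP+DCA 3, Spp1 (139.4 CPM) and Sox9 (70.95 CPM), which are not confined to bile ducts, made up most of the cholangiocyte sum, while Krt19 was at 0.650 CPM and Epcam at 0.921 CPM, within or below the range of the other CLP+DCA mice. The remaining markers, Krt7 (1.16 CPM) and Cftr (0.298 CPM), were above the other CLP+DCA mice, which reached 0.827 and 0.067 CPM. Cftr had at most 11 reads in a mouse. The part of these cells in the results was not tested. The lobular position of a transcript was not measured. In whole liver, fewer cells of a type and less RNA per cell cannot be told apart.

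Levels in sham livers are compared between genes per kilobase of exon. Oat (289.9 ± 57.7 CPM per kb) and Glul (231.5 ± 46.6 CPM per kb; mean ± SD, n = 4) stood highest, and their ranges overlapped. Slc1a2 followed at 12.8 ± 1.16 CPM per kb, apart from both neighbors. Tbx3 and Rnf43, at 5.35 ± 2.35 and 5.24 ± 1.18 CPM per kb, overlapped each other. Lgr5, Axin2 and Znrf3 formed a group at 1.45 ± 0.54, 1.35 ± 0.54 and 1.33 ± 0.14 CPM per kb, each overlapping the next. The ligand genes were lowest, with Rspo3 at 0.680 ± 0.085 and Wnt2 at 0.485 ± 0.181 CPM per kb, ranges that also overlapped.

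The question of CLP versus sham is what sepsis does to the liver's transcripts. None of the 10 genes passed the FDR by edgeR's quasi-likelihood test, where 2.78% of all genes tested did (367 of 13190). DESeq2 and edgeR on the 8 mice compared each called 2 of the 10 (Oat and Rspo3), and DESeq2 on all 12 mice and voom each called 1 (Oat). Over all genes, DESeq2 on the 8 mice called 3428 of 14683 and edgeR on these mice 2387 of 13079. DESeq2 on all 12 mice called 1894 of 14517 genes, and voom 3453 of 13190. At an unadjusted p under 0.05 there was 1 gene, Oat, where all genes gave 28.6%. Fold changes were below 0 for 8 of the 10 (48.1% of all genes), and their median was -0.22, beside 0.02 for all genes. The CLP values did not overlap those of sham for 2 genes, Oat (lower) and Rspo3 (higher), where 26.5% of all genes did not overlap (14.2% lower and 12.2% higher).

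**Figure D1:**
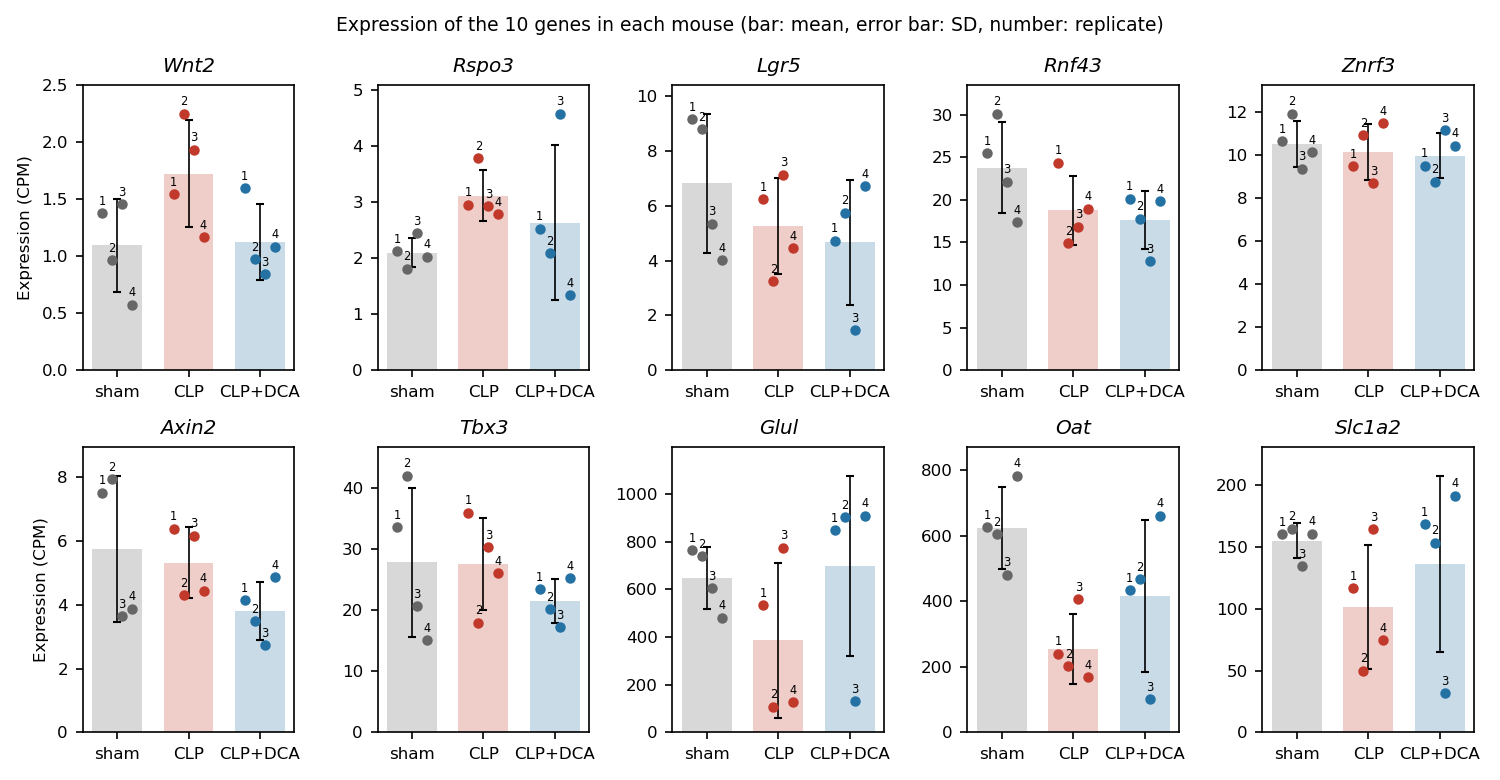
Expression in CPM (y axis, linear, from 0) of the 10 genes in sham, CLP and CLP+DCA livers (x axis). Points are mice, numbered by replicate, bars are means and error bars SD (n = 4). Oat lies lower in all CLP mice than in all sham mice, and Glul lies between 108.5 and 130.4 CPM in CLP 2, CLP 4 and CLP+DCA 3.

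Wnt2 encodes a Wnt ligand of the hepatic endothelium. Expression was 1.38, 0.966, 1.46 and 0.574 CPM in sham replicates 1 to 4, 1.54, 2.25, 1.93 and 1.17 CPM in CLP replicates 1 to 4, and 1.60, 0.975, 0.840 and 1.08 CPM in CLP+DCA replicates 1 to 4. In CLP, 3 of the 4 mice were above every sham mouse and replicate 4 was within the sham range. The CLP+DCA range overlapped that of both other groups. Values rest on 21 to 80 reads per mouse. The log2 fold change in CLP versus sham was 0.66 (standard error 0.32, 95% interval -0.04 to 1.36, adjusted p = 0.194 by edgeR's quasi-likelihood test), and in CLP+DCA versus CLP it was -0.62 (interval -1.32 to 0.08, adjusted p = 0.545), neither past the threshold.

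Rspo3 encodes R-spondin 3, which binds LGR receptors and thereby holds RNF43 and ZNRF3 in check. It measured 2.12, 1.81, 2.44 and 2.02 CPM in sham, 2.95, 3.78, 2.93 and 2.78 CPM in CLP, and 2.52, 2.08, 4.58 and 1.34 CPM in CLP+DCA (replicates 1 to 4 in each group). Every CLP mouse was above every sham mouse, while CLP+DCA held both the highest (replicate 3) and the lowest (replicate 4) value of the 12. Sham averaged 2.10 ± 0.262 CPM, whereas CLP averaged 3.11 ± 0.454 CPM (mean ± SD of 4 mice). This is a log2 fold change of 0.57 (standard error 0.30, interval -0.10 to 1.23), with an adjusted p of 0.232 by edgeR's quasi-likelihood test. On the 8 mice of this comparison alone, the same test gave 0.56 (adjusted p = 0.0458), past the threshold. A two-sided exact permutation test on log2 CPM gave an unadjusted p = 0.0286, the smallest that 4 against 4 mice allow. Any gene whose groups do not overlap gives this p, as 26.5% of all genes do, so it only restates the separation. Apart from Oat, the other genes gave 0.114 (Wnt2 and Slc1a2) to 0.914 (Tbx3) in this test. Reads on Rspo3 numbered 42 to 169 per mouse. For CLP+DCA versus sham it was 0.33 (adjusted p = 0.628), and -0.081 (adjusted p = 0.957) without CLP+DCA 3.

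Endothelial and stellate cells are the sources of these ligands, and their markers were read beside them. The 14 endothelial markers summed to between 158.2 and 199.6 CPM in sham, 204.3 and 270.6 CPM in CLP and 158.6 and 262.0 CPM in CLP+DCA. In CLP versus sham, 12 of the 14 had a log2 fold change above 0, where 48.1% of all genes were below 0. Stab1 alone passed the FDR, as did 2.78% of all genes. The 10 stellate cell markers summed to 117.4 to 202.4 CPM in sham, 167.6 to 417.5 CPM in CLP and 149.7 to 317.8 CPM in CLP+DCA. None of them passed the FDR in CLP versus sham, where 2.78% of all genes did. Des, a muscle and stellate cell filament gene, was at 172.0 CPM in CLP 3 and at 3.32 to 3.93 CPM in the other CLP mice, and without Des the sums were 115.7 to 199.9 CPM in sham, 164.3 to 245.5 CPM in CLP and 148.2 to 312.5 CPM in CLP+DCA. The part of these cells in the values of Wnt2 and Rspo3 was not tested.

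Lgr5 encodes an R-spondin receptor that is itself a Wnt target in pericentral hepatocytes. It measured 9.15, 8.79, 5.35 and 4.02 CPM in sham, 6.24, 3.26, 7.13 and 4.45 CPM in CLP, and 4.72, 5.75, 1.46 and 6.71 CPM in CLP+DCA. CLP+DCA 3 was the lowest mouse, followed by CLP 2, both below the sham range, and otherwise the 3 groups overlapped broadly. Lgr5 had a log2 fold change of -0.36 in CLP versus sham (interval -1.28 to 0.56, adjusted p = 0.576) and -0.55 in CLP+DCA versus sham (interval -1.48 to 0.37, adjusted p = 0.568), both by edgeR's quasi-likelihood test. Lgr5 overlaps A930009A15Rik on the opposite strand, which had at most 4 reads in a mouse.

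Rnf43 and Znrf3 encode the transmembrane ubiquitin ligases that clear Wnt receptors, and both are feedback targets of the pathway. Rnf43 measured 25.5, 30.1, 22.1 and 17.4 CPM in sham, 24.4, 14.9, 16.8 and 18.9 CPM in CLP, and 20.1, 17.8, 12.8 and 19.8 CPM in CLP+DCA. The groups overlapped, with CLP 2, CLP 3 and CLP+DCA 3 below the sham range. Its log2 fold change was -0.34 (interval -0.78 to 0.10, adjusted p = 0.272) in CLP versus sham and -0.43 (interval -0.87 to 0.01, adjusted p = 0.390 by edgeR's quasi-likelihood test) in CLP+DCA versus sham. Rnf43 overlaps 1110028F11Rik, with at most 42 reads in a mouse. Znrf3 was the steadiest of the 10 genes, with 9.37 to 11.9 CPM in sham, 8.70 to 11.5 CPM in CLP and 8.77 to 11.2 CPM in CLP+DCA. Its log2 fold changes were -0.06 (interval -0.31 to 0.20) in CLP versus sham, -0.08 (interval -0.34 to 0.18) in CLP+DCA versus sham and -0.02 (interval -0.28 to 0.24) in CLP+DCA versus CLP. These were the narrowest intervals of the 10 genes.

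Axin2, a scaffold of the β-catenin destruction complex, is a widely used readout of Wnt signaling. It measured 7.51, 7.95, 3.64 and 3.88 CPM in sham, 6.38, 4.31, 6.17 and 4.45 CPM in CLP, and 4.15, 3.50, 2.74 and 4.87 CPM in CLP+DCA. The sham mice themselves lay apart, replicates 1 and 2 above and replicates 3 and 4 below every CLP mouse. The log2 fold change in CLP versus sham was -0.10 (standard error 0.28, interval -0.72 to 0.51, adjusted p = 0.825). Between CLP+DCA and sham it was -0.59 (standard error 0.28, interval -1.21 to 0.03, adjusted p = 0.398), and in CLP+DCA versus CLP -0.49 (interval -1.11 to 0.13, adjusted p = 0.591), all by edgeR's quasi-likelihood test.

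Tbx3 encodes a transcription factor that is a Wnt target in hepatocytes. Its values were 33.6, 42.0, 20.7 and 15.1 CPM in sham, 36.0, 18.0, 30.3 and 26.0 CPM in CLP, and 23.5, 20.2, 17.2 and 25.2 CPM in CLP+DCA. As for Axin2, the highest value was in sham 2, and all CLP+DCA mice lay within the sham range. The log2 fold change was -0.01 in CLP versus sham (interval -0.66 to 0.64, adjusted p = 0.981), a value whose sign turned under other scalings (0.015 with the upper quartile), and -0.37 in CLP+DCA versus sham (interval -1.03 to 0.28, adjusted p = 0.581 by edgeR's quasi-likelihood test).

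Glul encodes glutamine synthetase, which fixes ammonia in the last rows of hepatocytes before the central vein. Expression was 762.6, 737.7, 603.7 and 481.6 CPM in sham, 532.7, 108.5, 774.9 and 126.8 CPM in CLP, and 846.3, 902.6, 130.4 and 908.3 CPM in CLP+DCA. CLP 2, CLP 4 and CLP+DCA 3 were far below the other 9 mice, whose lowest was sham 4. CLP 3 and CLP+DCA 1, 2 and 4 were above every sham mouse. Sham averaged 646.4 ± 130.2 CPM, CLP 385.7 ± 325.0 CPM and CLP+DCA 696.9 ± 378.7 CPM (mean ± SD of 4 mice). Log2 fold changes were -0.74 in CLP versus sham (standard error 0.66, interval -2.20 to 0.71, adjusted p = 0.459), 0.11 in CLP+DCA versus sham (interval -1.34 to 1.55, adjusted p = 0.948) and 0.85 in CLP+DCA versus CLP (interval -0.60 to 2.31, adjusted p = 0.702), all by edgeR's quasi-likelihood test. Without CLP 3, Glul was at -1.34 in CLP versus sham, without CLP 2 at -0.44 and without CLP 4 at -0.45, and voom gave -1.26. In CLP and CLP+DCA the spread between mice of the same group exceeded the difference between the group means.

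Oat encodes ornithine aminotransferase, a mitochondrial enzyme of ornithine and glutamate metabolism found with glutamine synthetase around the central vein. It measured 626.0, 604.5, 481.3 and 783.6 CPM in sham, 240.1, 202.4, 407.1 and 168.6 CPM in CLP, and 433.7, 467.7, 101.7 and 661.6 CPM in CLP+DCA. Every CLP mouse was below every sham mouse, CLP 3 being the nearest. In CLP+DCA, replicate 4 was within the sham range, replicates 1 and 2 were just below it and replicate 3 was the lowest of the 12 mice. Sham averaged 623.8 ± 124.1 CPM, CLP 254.5 ± 105.8 CPM and CLP+DCA 416.2 ± 232.4 CPM (mean ± SD of 4 mice). For CLP versus sham the log2 fold change was -1.29 (standard error 0.45, interval -2.29 to -0.30), with an unadjusted p of 0.0152 and an adjusted p of 0.0998 by edgeR's quasi-likelihood test, which misses the threshold. The two-sided exact permutation test on log2 CPM gave an unadjusted p = 0.0286, which again only restates that the groups do not overlap. Without CLP+DCA 3, a mouse outside this comparison that shares the estimate of the spread, the log2 fold change stayed at -1.29 and the adjusted p was 0.00851. On the 8 mice compared, edgeR gave an adjusted p of 0.0188 and DESeq2 one of 3.61e-05. Oat was at -0.58 in CLP+DCA versus sham (interval -1.57 to 0.40, adjusted p = 0.569) and at 0.71 in CLP+DCA versus CLP (interval -0.27 to 1.69, adjusted p = 0.631), neither past the threshold.

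Slc1a2 encodes the glutamate transporter GLT-1, which supplies glutamate to the glutamine-producing hepatocytes. It measured 160.8, 165.0, 134.4 and 161.1 CPM in sham, 116.8, 49.98, 164.5 and 74.8 CPM in CLP, and 168.6, 153.6, 31.8 and 191.6 CPM in CLP+DCA. CLP 1, 2 and 4 and CLP+DCA 3 were below the sham range, CLP 3 was inside it, and CLP+DCA 1 and 4 were above it. Slc1a2 had log2 fold changes of -0.61 in CLP versus sham (standard error 0.47, interval -1.64 to 0.41, adjusted p = 0.387), -0.19 in CLP+DCA versus sham (adjusted p = 0.864) and 0.43 in CLP+DCA versus CLP (interval -0.60 to 1.45, adjusted p = 0.793), all by edgeR's quasi-likelihood test. The value for CLP versus sham was -0.39 without CLP 2 and -0.95 without CLP 3.

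**Figure D2:**
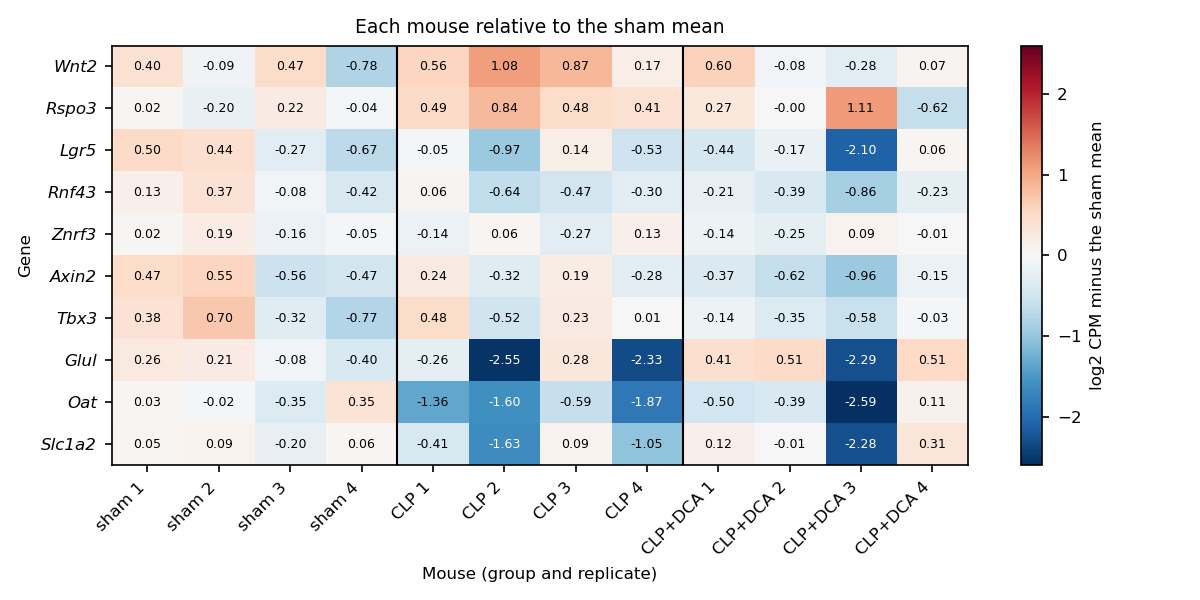
Log2 CPM of each mouse (columns, grouped as sham, CLP and CLP+DCA) minus the sham mean, for the 10 genes (lines from ligands at the top to pericentral enzymes and the transporter at the bottom), in color and as printed values. The darkest blues are Glul in CLP 2, CLP 4 and CLP+DCA 3 and Oat, Slc1a2 and Lgr5 in CLP+DCA 3, and Znrf3 stays near white in all 12 mice.

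Glul, Oat and Slc1a2 had their lowest values in the same mice. Relative to the sham mean on the log2 CPM scale, Glul was at -2.55 in CLP 2, -2.33 in CLP 4 and -2.29 in CLP+DCA 3, Oat at -1.60, -1.87 and -2.59, and Slc1a2 at -1.63, -1.05 and -2.28. For each of these 3 genes, these 3 mice were the lowest of the 12, a pattern named after the values were seen. The same 3 mice were the lowest for 13.8% of all 13190 genes and the highest for 13.8%, so that the pattern is shared by many other transcripts. They are the mice with the lowest TMM factors, whose part in these values was not tested. Hepatocyte markers summed to 44054 CPM in CLP 2, 54084 CPM in CLP 4 and 39810 CPM in CLP+DCA 3, beside 52958 and 57073 CPM in the other CLP mice and 59367 to 65659 CPM in the other CLP+DCA mice, and their part in these values was not tested. Rspo3 was at 0.84 in CLP 2, 0.41 in CLP 4 and 1.11 in CLP+DCA 3, and CLP 4 was the lowest of the CLP mice for it.

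Within groups, the SD of log2 CPM was 1.16 for Glul, 0.83 for Slc1a2, 0.78 for Oat and 0.71 for Lgr5, beside a median of 0.25 over all genes. Glul thus varied more than 97.9% of the genes tested, and Znrf3, with an SD of 0.16, more than 25.6%. Over the 12 mice the highest CPM exceeded the lowest 8.37-fold for Glul, 7.70-fold for Oat, 6.26-fold for Lgr5, 6.03-fold for Slc1a2 and 1.37-fold for Znrf3. Likeness of profiles was measured as the root mean square distance between log2 CPM over the 12 mice, each gene scaled to mean 0 and SD 1. Slc1a2 and Glul were the closest pair of the 10 genes (0.375), followed by Oat and Slc1a2 (0.400) and Axin2 and Tbx3 (0.440). Among all genes tested, the nearest to Glul were Sult2a7 (0.195) and Cacybp (0.237), the nearest to Lgr5 Cd1d1 (0.267) and Sdr9c7 (0.307), the nearest to Axin2 Bclaf1 (0.303) and Tbx3, and the nearest to Rspo3 Pdk3 (0.255) and Srgn (0.303). The points share libraries and groups, so that the distances are descriptions only.

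The comparisons with CLP+DCA ask where livers stood after DCA was given during sepsis. In CLP+DCA versus sham, none of the 10 genes passed the FDR by edgeR, DESeq2 or voom (0.0379% of all genes did by edgeR), none had an unadjusted p under 0.05 (13% of all genes) and none had groups that did not overlap (9.76%). Fold changes were below 0 for 7 of the 10 (47.8% of all genes), with a median of -0.28. In CLP+DCA versus CLP, none passed the FDR by edgeR or DESeq2 (0.00758% of all genes by edgeR), none had an unadjusted p under 0.05 (10%) and none had groups that did not overlap (4.37%), and 7 of the 10 were below 0 (48.4%), with a median of -0.14. The 3 genes above 0 were Glul, Oat and Slc1a2, at 0.85, 0.71 and 0.43, beside -0.74, -1.29 and -0.61 in CLP versus sham, a contrast that shares the CLP mice. Voom with sample quality weights put Oat past the threshold in CLP+DCA versus CLP (log2 fold change 0.99, adjusted p = 0.0323). Over all genes, voom called 1341 of 13190 in this contrast. The upper bounds of the intervals were 2.31 for Glul, 1.69 for Oat and 1.45 for Slc1a2, so that differences of this size are not excluded with 4 mice of this spread.

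**Figure D3:**
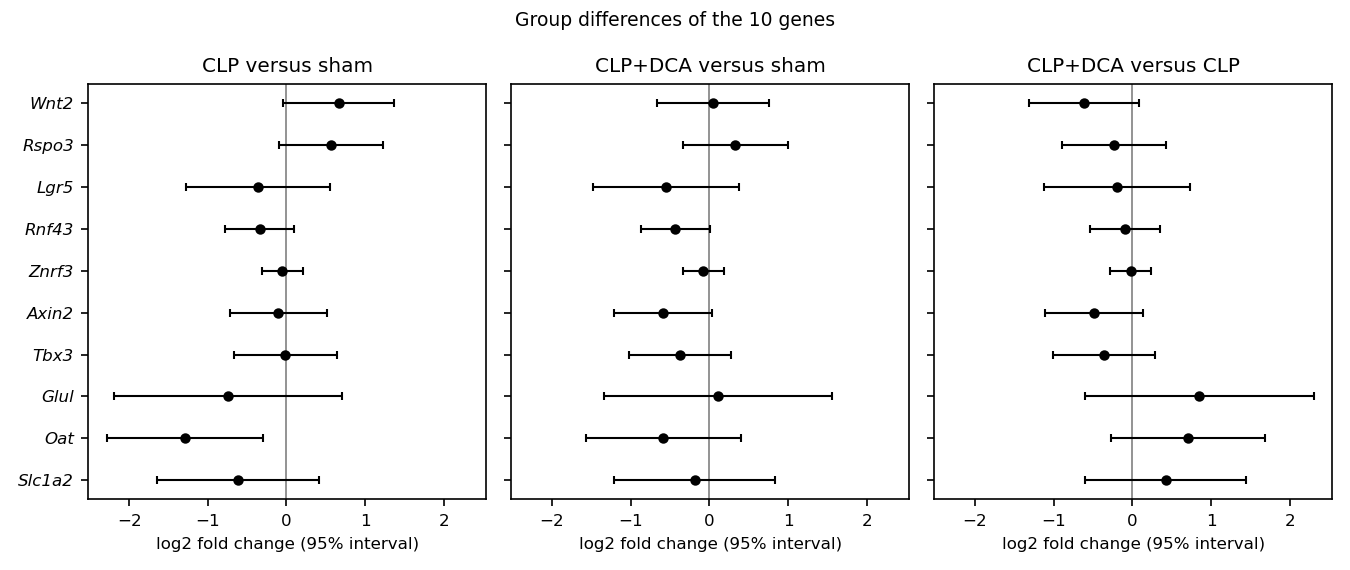
Log2 fold changes (x axis) of the 10 genes (y axis) in the 3 contrasts, with 95% intervals from the edgeR fit. Only the interval of Oat in CLP versus sham (-2.29 to -0.30) excludes 0 before adjustment, and Glul has the widest interval in every panel.

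Other genes of the pathway were read from the same fit. Of 24 further genes of Wnt ligands, R-spondins and their secretion or inactivation, 10 passed the filter, and none of them passed the FDR in CLP versus sham (median log2 fold change 0.32). Wnt5a, a ligand that mostly acts outside the β-catenin branch, had 0.520 to 0.916 CPM in sham and 1.24, 5.60, 1.33 and 3.77 CPM in CLP, without overlap (log2 fold change 2.0, standard error 0.62, adjusted p = 0.0774). Wnt9b, a central vein ligand, was at 0.94 (adjusted p = 0.119 by edgeR's quasi-likelihood test). Notum, a Wnt-inactivating enzyme and pericentral Wnt target that was named after its values were seen, had 24.4 to 31.4 CPM in sham, 16.8, 2.78, 17.6 and 6.42 CPM in CLP, and 21.8, 22.7, 1.30 and 21.3 CPM in CLP+DCA (CLP versus sham, log2 fold change -1.30, adjusted p = 0.231). Its lowest values were in CLP 2, CLP 4 and CLP+DCA 3, as for Glul.

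In these lists, a gene is said to rise or fall where it passed the FDR, as 2.78% of all genes did in CLP versus sham. Of 17 receptor genes, 12 passed the filter, and 1 rose and 1 fell in CLP versus sham. Lrp5, a Wnt co-receptor, rose from 40.7 to 46.9 CPM in sham to 76.9, 123.4, 66.3 and 103.0 CPM in CLP (log2 fold change 1.07, standard error 0.25, adjusted p = 0.0478 by edgeR's quasi-likelihood test). In CLP+DCA it measured 49.0, 42.0, 92.5 and 48.8 CPM, so that replicate 3 alone was within the CLP range. Fzd8, a Frizzled receptor, fell (log2 fold change -1.15, standard error 0.27, adjusted p = 0.0486). Of 19 genes of intracellular transduction, 17 passed the filter and 1 fell, Dvl2, which relays the signal from Frizzled (-0.80, standard error 0.16, adjusted p = 0.0344), while Bcl9l, a β-catenin cofactor, was at 0.29 (adjusted p = 0.169). Of 16 genes listed as inhibitors, 6 passed the filter and 1 rose, Dkk3, a member of the Dickkopf family (2.41, standard error 0.54, adjusted p = 0.0444). Dkk3 was low, at 0.443 to 0.766 CPM in sham and 1.73, 5.65, 2.08 and 3.23 CPM in CLP, with at most 118 reads in a mouse. Kremen1, a Dickkopf receptor, was at 0.25 (adjusted p = 0.180 by edgeR's quasi-likelihood test, as for Dkk3). The medians were -0.12 for receptors, -0.00 for transduction and 0.58 for inhibitors, and no gene of these lists passed the FDR in either contrast with CLP+DCA.

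Zonated hepatocyte genes outside the 10 were read in the same way. Of 17 further pericentral genes, all of which passed the filter, none passed the FDR in CLP versus sham by edgeR's quasi-likelihood test, 8 were lower and 1 higher at an unadjusted p under 0.05 (28.6% of all genes in either direction), and 9 did not overlap, all lower in CLP (14.2% of all genes were lower without overlap). Their median log2 fold change was -0.75. The smallest p belonged to Cyp1a2, a cytochrome P450 of caffeine and xenobiotic oxidation (-3.34, standard error 0.84, adjusted p = 0.0544), and to Cyp2a5, the coumarin hydroxylase (-3.81, standard error 1.08, adjusted p = 0.0694). In CLP 2, CLP 4 and CLP+DCA 3, 11 of the 17 had their 3 lowest values, as did 13.8% of all genes. Of 18 periportal genes, 2 fell in CLP versus sham (2.78% of all genes passed the FDR), 16 were below 0 (48.1% of all genes) and the median was -0.59. At an unadjusted p under 0.05, 5 were lower and 2 higher (28.6% of all genes in either direction). Without overlap, 8 were lower in CLP (14.2% of all genes) and 0 higher. Ass1, 1 of the 16 below 0, had at most 33 reads in a mouse. G6pc, glucose-6-phosphatase, fell (log2 fold change -1.42, standard error 0.30, adjusted p = 0.0404), and Etnppl, ethanolamine-phosphate phospho-lyase, fell (-2.92, standard error 0.68, adjusted p = 0.0476). For 7 of the 18, the same 3 mice were the lowest, beside the same 13.8%. Genes of both ends of the lobule thus had medians below 0 in CLP versus sham. In CLP+DCA versus sham the medians were -0.43 for pericentral and -0.30 for periportal genes, and in CLP+DCA versus CLP they were 0.36 and 0.30, with no gene past the FDR in edgeR's quasi-likelihood test. The 6 calls in these lists (Lrp5, Fzd8, Dvl2, Dkk3, G6pc and Etnppl) lie close to the threshold. Without any of the sham mice, CLP 2, CLP 4 or CLP+DCA 1, none of the 6 passed (adjusted p between 0.0513 and 0.136), and Dvl2 alone passed without CLP 1 (0.044) or CLP+DCA 2 (0.0353), while every fold change kept its direction.

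**Figure D4:**
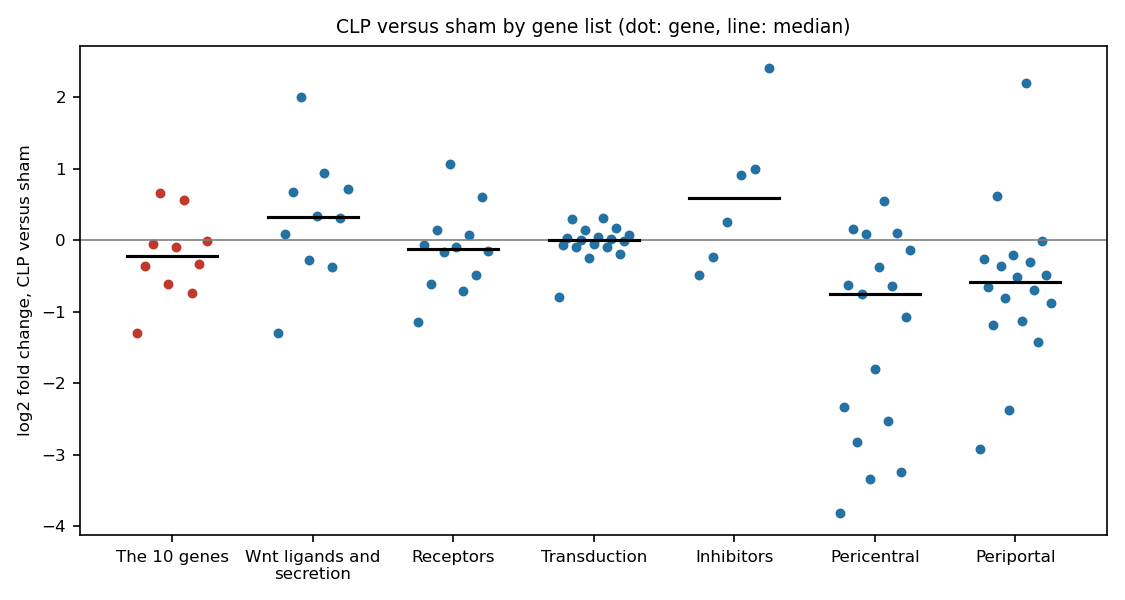
Log2 fold changes in CLP versus sham (y axis) of the 10 genes (red) and of the genes of 6 other lists that passed the filter (blue). Dots are genes and lines are medians, which lie at -0.22 for the 10 genes, -0.75 for pericentral and -0.59 for periportal genes, with transduction genes close to 0.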

How the data were processed

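Whole-liver RNA of 12 mice (4 sham, 4 CLP, 4 CLP+DCA) was sequenced from TruSeq RNA V2 libraries, a kit that does not mark strand. The authors deposited counts of reads per gene, without normalization, made with STAR 2.5 and featureCounts (Subread 1.5.0-p1) on mm10. The annotation and strand setting are not given in the sources used here, so reads of genes that overlap on opposite strands cannot be told apart. Counts were filtered (filterByExpr, minimum count 10), TMM-normalized and tested with edgeR 4.0.16 in R 4.3.3 (robust quasi-likelihood, all 12 mice, FDR 0.05). The procedure was also run on simulated counts, with the same dispersion for all genes and no deviating mice. That run does not show how the test performs with the spread between these mice. Log2 CPM used a prior count of 2. DESeq2 1.42.0, voom (limma 3.58.1), other normalizations and filters, a replicate block and leaving out each mouse were alternatives, and exact permutation tests were added after the data were seen. The standard error is the log2 fold change divided by the square root of F. Exon lengths are unions of coding-gene exons in GENCODE M21.

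The members and lists were chosen with earlier results of these data known. Named are the 10 genes, the 2 smallest p of each pathway and zonation list in CLP versus sham, every gene of these lists past the FDR and the 2 nearest profiles of Axin2, Lgr5, Glul and Rspo3. The cell type markers Stab1, Alb, Retnlg, Ly6g, Des, Spp1, Sox9, Krt19, Epcam, Krt7 and Cftr and the periportal gene Ass1 were named after their values were seen. Each mouse is 1 replicate. Depth was 24436513 to 44266819 reads per mouse. Because the reads carry no molecular identifiers, counting error is a minimum, and the SD between mice includes it.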

Additional observations from a re-analysis of the deposited data

Results flagged for a closer look

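In 30 groups of 4 mice (10 genes in 3 groups), the gap between the lowest or highest mouse and its nearest neighbor was set against the range of log2 CPM, and compared with Dixon's 95% critical value. Chance marks about 1 in 20 groups, and 3 of the 30 were marked. Glul in CLP+DCA 3 was 130.4 CPM, against 846.3 to 908.3 CPM in the other CLP+DCA mice (ratio 0.964). Slc1a2 in CLP+DCA 3 was 31.8 CPM, against 153.6 to 191.6 CPM (ratio 0.877). Slc1a2 in sham 3 was 134.4 CPM, against 160.8 to 165.0 CPM in the other sham mice (ratio 0.873), a far smaller distance in CPM.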

How the results depend on the processing

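The number of the 10 genes past the FDR in CLP versus sham, 0 in the main analysis, was 2 with DESeq2 on the 8 mice compared and 2 with edgeR on these mice (Oat and Rspo3 in both), and 1 (Oat) with DESeq2 on all 12 mice and with voom. Leaving out each mouse gave 0 to 1, the 1 being Oat without CLP+DCA 3. Voom also gave 1 (Oat) in CLP+DCA versus CLP. In the other pathway and zonation lists, 6 genes passed in CLP versus sham. That count was 28 with DESeq2 on 8 mice, 14 with DESeq2 on 12 mice, 17 with edgeR on 8 mice, 26 with voom, 3 with library size alone, 1 without a filter and 0 to 22 when leaving out each mouse. Voom gave 3 in CLP+DCA versus sham and 13 in CLP+DCA versus CLP, where DESeq2 gave 1 on 8 mice and 1 on 12 mice, and leaving out each mouse 0 to 8. The cause of these shifts was not tested.

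Over all genes, CLP versus sham gave 367, and from 10 to 3157 when leaving out each mouse, the highest without CLP+DCA 3, 122 without a filter, 209 with library size alone, 2387 with edgeR on 8 mice, 3428 and 1894 with DESeq2 on 8 and 12 mice, and 3453 with voom. CLP+DCA versus sham gave 5, against 496 with voom, 169 and 247 with DESeq2 on 8 and 12 mice, 0 with edgeR on 8 mice and 1 to 11 when leaving out each mouse. CLP+DCA versus CLP gave 1, against 1341, 80, 136 and 0 under the same settings, and 616 without CLP+DCA 3. Library size alone moved the median of all genes in CLP versus sham from 0.02 to -0.15 and the split from 216 higher and 151 lower to 100 higher and 109 lower.

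Replicate numbers did not pair the mice: deviations of same-numbered mice correlated between -0.459 and 0.55. With the replicate number as a block, 46 genes passed in CLP versus sham, 0 of the 10 genes and 0 of the other lists.

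Signs turned for 10 values. In CLP versus sham, Tbx3 moved to 0.015 (upper quartile), 0.00050 (1 CPM filter), 0.026 (voom), 0.030 (replicate block) and 0.053 (log2 CPM difference of the permutation test). Leaving out each mouse gave -0.22 to 0.26 for Tbx3, -0.27 to 0.10 for Axin2 and -0.12 to 0.012 for Znrf3. In CLP+DCA versus sham, Slc1a2 was 0.053 with voom, Wnt2 -0.0040 with library size alone and Glul -0.21 as a log2 CPM difference. There, leaving out each mouse gave -0.40 to 0.14 for Slc1a2, -0.081 to 0.55 for Rspo3, -0.17 to 0.22 for Wnt2 and -0.046 to 0.45 for Glul. In CLP+DCA versus CLP, library size alone gave 0.026 for Rnf43 and 0.10 for Znrf3, and leaving out each mouse -0.42 to 0.10 for Lgr5, -0.19 to 0.061 for Rnf43 and -0.089 to 0.044 for Znrf3. Of 1064 log2 fold changes recomputed, the 34 that turned all belong to these genes and contrasts, and 929 kept direction and side of the threshold. Wnt2 and Rspo3 rest on 21 to 169 reads per mouse.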
